A study of Mus musculus with 2 samples.

Results

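The genes described were the 4 neutrophil-attracting CXC chemokine genes Cxcl1, Cxcl2, Cxcl3 and Cxcl5 and the receptor gene Cxcr2, 5 of the 27998 genes counted. The list was selected on measured values, the levels of these genes by cell type label and day in the same libraries, so their levels and their differences between libraries are a description and carry no test. Each was summed over the cells of every deposited cell type label and over 2 libraries.

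Single-cell RNA sequencing (10x Chromium v3, which counts the 3′ ends of single molecules) was performed on dissociated tibialis anterior muscle after injection of notexin, a snake venom phospholipase that injures muscle fibers. The series was made to provide a transcriptomic reference of muscle cells over the course of injury, and the comparison between days addressed which cells held these transcripts early and late. The day 2 and day 7 groups held 1 library each, from 1 mouse each, with no uninjured library and no replicate. The strain is C57Bl/6 in the labels and C57BL/6J in the deposited annotation. The labels give female mice of 7 months in both groups, while the deposited cell annotation gives males, of 4 months at day 2 and 7 months at day 7. In the called barcodes, genes of the Y chromosome summed to 6575 counts at day 2 and 4856 at day 7, and Xist to 5 and 1. Day, mouse, library and possibly age therefore cannot be told apart.

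CXC chemokines of this group carry a glutamate-leucine-arginine motif ahead of the paired cysteines and act on the G protein-coupled receptor CXCR2, which is carried above all by neutrophils. Binding draws neutrophils out of the blood and through the tissue toward the source. The ligand genes are classical early targets of interleukin-1, TNF and Toll-like receptor signaling through NF-kB, and in muscle neutrophils enter within hours of injury and give way to monocytes and macrophages. Fibro-adipogenic progenitors (FAPs), the mesenchymal cells between the fibers, are among the cells that respond to such signals.

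All 4 ligand genes lay in one cluster on chromosome 5 (GRCm38, GENCODE vM21), all on the plus strand and within 147 kb. From the first to the last they were Cxcl5 (chr5:90759360-90761624), Cxcl3 (chr5:90786103-90789600), Cxcl1 (chr5:90891241-90893115) and Cxcl2 (chr5:90903871-90905938). Ppbp and Pf4, which encode platelet chemokines, and Cxcl15 lay between Cxcl5 and Cxcl1. Cxcr2 lay on chromosome 1 (chr1:74153989-74161246). The transcripts of Cxcl2 and Cxcl3 are alike in part. Of the 58-base windows in the transcripts, 5.43% for Cxcl2 and 3.64% for Cxcl3 also occurred in another gene, those of Cxcl2 in Cxcl3 and those of Cxcl3 in Cxcl2 and other genes, against 0% for Cxcl1, 0.687% for Cxcl5 and 2.83% for Cxcr2.

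The proximal promoters of 3 of the 4 ligand genes are shown because they held the same letters there. Cxcl5 had no entry among the promoters used and was not searched. Promoters of 4 of the 5 members (Cxcl1, Cxcl2, Cxcl3 and Cxcr2) were matched by symbol in a RefSeq table (GRCm38.p6; 250 bases before to 50 bases after each start). Each line gives the 100 bases before the start and the first 20 bases of the transcript, 5′ to 3′ on the plus strand, with matches to the NF-kB consensus in capitals.
Cxcl1 (chr5:90891145-90891264): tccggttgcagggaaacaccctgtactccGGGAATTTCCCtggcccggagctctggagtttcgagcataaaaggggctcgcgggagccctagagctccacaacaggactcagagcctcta
Cxcl2 (chr5:90903799-90903918): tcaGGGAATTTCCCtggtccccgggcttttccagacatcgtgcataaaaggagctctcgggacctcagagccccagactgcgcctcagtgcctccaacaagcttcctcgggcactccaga
Cxcl3 (chr5:90786001-90786120): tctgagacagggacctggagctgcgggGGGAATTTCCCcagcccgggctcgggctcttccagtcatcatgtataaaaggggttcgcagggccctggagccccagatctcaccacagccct

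The consensus was searched on both strands, and in each of the 3 windows it matched once on either strand, 1 base apart, so that both matches together spelled GGGAATTTCCC. With the start base counted as 0, this stretch began at position -71 in Cxcl1, -97 in Cxcl2 and -73 in Cxcl3. The NF-kB consensus was held by 4.50% of the 32817 promoters in the table. The exact letters GGGAATTTCCC, searched after they had been seen in these genes, were held by 14 of them (0.0427%), from 14 genes of which 3 were these ligand genes. The letters TATAAA were found at -30 in Cxcl3 alone among the 4 windows and in 13.6% of all promoters. The shorter stretch ATAAAAGG, again searched after it was seen, stood at -34 in Cxcl1, -57 in Cxcl2 and -29 in Cxcl3, and in 1.76% of all promoters. AP-1 (TGANTCA, 7.81% of promoters) and C/EBP (TTNNGCAA, 10.8%) had no match in the 4 windows, and neither NF-kB nor TATAAA had one in that of Cxcr2. A match is a run of letters and not a measured binding site.

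The cells used were those in the deposited annotation that passed the quality limits of the study, 3178 labeled cells at day 2 and 3196 at day 7, with medians of 9058 and 6583 counts per cell. Levels are counts per 1000000 counts (CPM), the sum of a gene's counts over the cells of a label divided by the sum of all counts there. Every interval in parentheses is a 95% interval for counting error, and with 1 library a day no value has an error between animals. RNA released from broken cells was read from the barcodes of 1 to 100 counts and is called ambient. A label is said to lie above ambient where its interval lay wholly above the interval of the ambient level. Of 4 barcodes that both libraries had as called cells, 1 was a kept cell in both. Of the kept cells, 12.7% at day 2 and 18.5% at day 7 held more counts of another class's markers than of their own.

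Labels were set against marker lists. FAPs expressed 7 of 7 FAP markers in at least 20% of cells at both days, and day 2 neutrophils 7 of 9 neutrophil markers. The 10 cells labeled neutrophils at day 7 expressed 1 of the 9 in at least 20% of cells, and their monocyte and macrophage markers summed to 5979 CPM beside 6173 CPM of neutrophil markers. They are given by their label but not set against the day 2 neutrophils. Of the cells labeled smooth muscle, 256 of 304 at day 2 and 183 of 232 at day 7 held more counts of another class's markers than of smooth muscle's, chiefly endothelial markers (8780.5 CPM beside 2442 CPM of their own at day 2). This label had 247 CPM of Cxcl1 and 175 CPM of Cxcl2 at day 2, and 72.7 and 43.9 CPM at day 7.

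**Figure D1:**
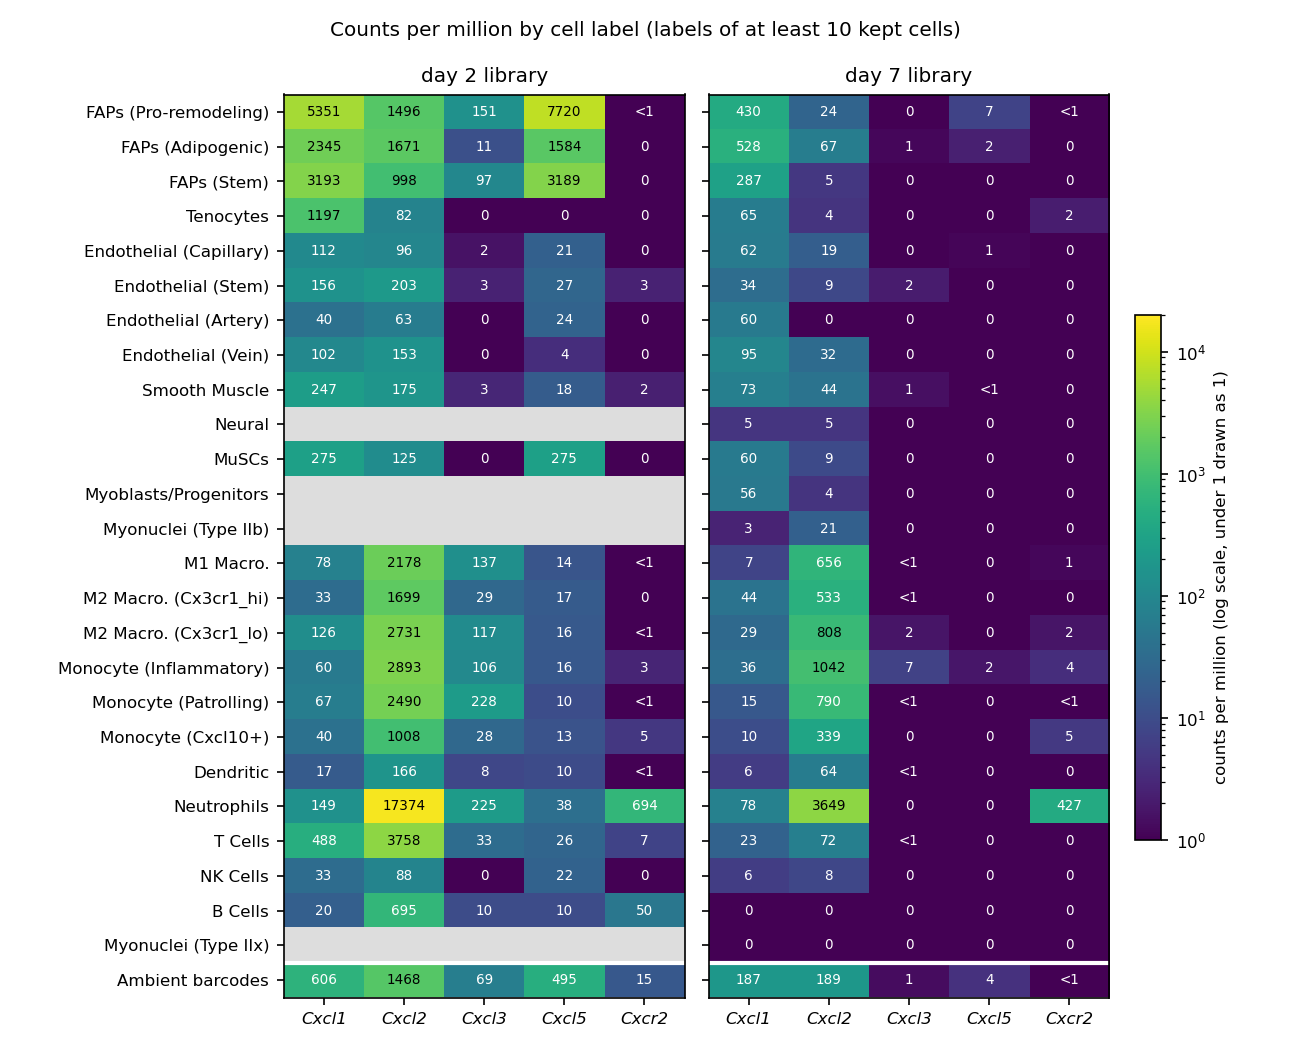
Levels of the 5 genes (columns) in each cell label (rows) in the day 2 (left) and day 7 (right) library, as CPM on a log color scale with the value printed in each field; labels under 10 kept cells are gray, and the last row is the ambient level of that library. At day 2 Cxcl1 and Cxcl5 were highest in the 3 FAP labels, Cxcl2 in neutrophils (17374 CPM) and Cxcr2 in neutrophils (694 CPM), and at day 7 Cxcl3 and Cxcl5 were at most 7.47 CPM in every label.

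At day 2 the 4 ligand genes were spread unequally over FAPs, monocytes and macrophages, and neutrophils. FAPs made up 6.77% of the labeled cells and held 98.4% of the Cxcl5 counts (98.3 to 98.6%) and 87.0% of the Cxcl1 counts (86.6 to 87.4%), and also 19.4% of the Cxcl3 and 8.56% of the Cxcl2 counts. Monocytes and macrophages, 40.7% of the cells, held 47.5% of the Cxcl2 counts and 66.2% of the Cxcl3 counts. Neutrophils, 22.3% of the cells, held a further 40.7% of the Cxcl2 counts, 13.0% of the Cxcl3 counts and 97.0% of the Cxcr2 counts (95.9 to 97.8%). The limits on cells had left 708 of 996 annotated neutrophils, and 3208 of all 3537 annotated barcodes. They thus took away a larger part of the neutrophils than of all annotated barcodes. The neutrophil shares of cells and counts hold for kept cells only. Cxcl1 and Cxcl5 thus lay mainly in FAPs, Cxcl2 and Cxcl3 mainly in myeloid labels, and the receptor almost wholly in 1 label.

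The makeup of the ligand counts differed as plainly between the classes. Of the 63115 ligand counts in day 2 FAPs, 50.2% were Cxcl5, 37.5% Cxcl1, 11.3% Cxcl2 and 1.04% Cxcl3. Of the 34641 in neutrophils 97.7% were Cxcl2, and of the 43215 in monocytes and macrophages 91.3% were Cxcl2 and 5.17% Cxcl3. Ambient barcodes held 23.0% Cxcl1, 55.6% Cxcl2, 2.63% Cxcl3 and 18.8% Cxcl5. None of the 3 classes had the ambient makeup, and Cxcl5 in the myeloid classes (0.537% and 0.211% of their ligand counts) lay far below its ambient share. Endothelial cells held few ligand counts, 678, of which 43.5% were Cxcl1 and 48.4% Cxcl2.

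**Figure D2:**
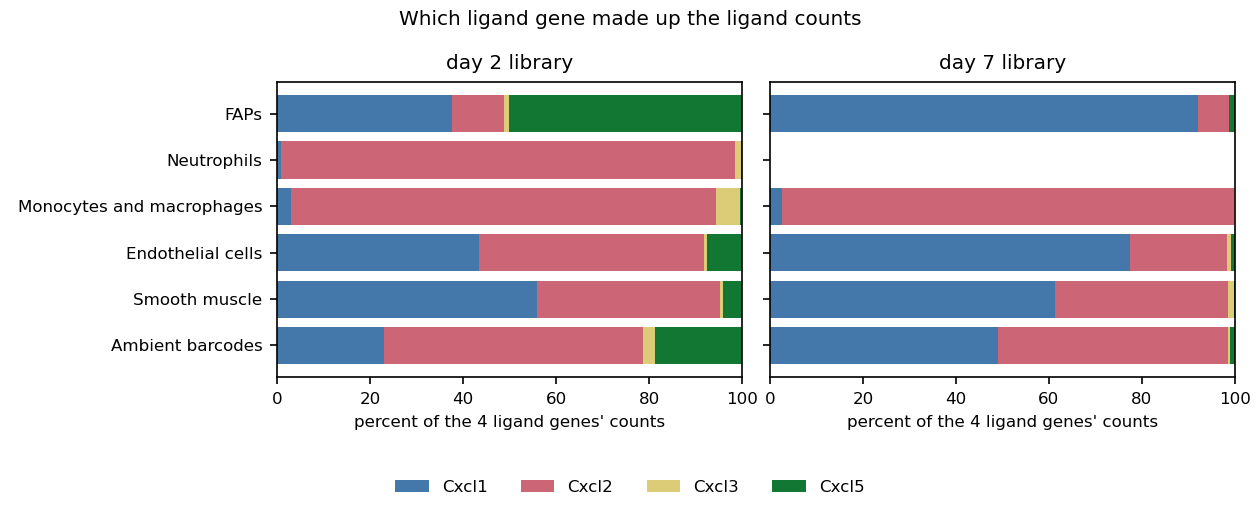
Share of each ligand gene (colors) in the summed counts of the 4 ligand genes, in percent, for 5 classes and for ambient barcodes at day 2 (left) and day 7 (right); the 10 cells labeled neutrophils at day 7 are left out. FAP counts went from 50.2% Cxcl5 at day 2 to 92.1% Cxcl1 at day 7, while monocytes and macrophages were mostly Cxcl2 in both libraries (91.3% and 97.1%).

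Cxcl5, a ligand known from stromal and epithelial cells, made up the most ligand counts of day 2 FAPs, through the pro-remodeling label. Stem FAPs held 4049 Cxcl5 and 4054 Cxcl1 counts, and in adipogenic FAPs Cxcl5 lay below Cxcl1 (2345 CPM). At day 2 its level was 7720.1 CPM (7628 to 7813) in the 138 pro-remodeling FAPs, 3189 CPM (3092 to 3289) in the 47 stem FAPs and 1584 CPM (1456 to 1720.1) in the 30 adipogenic FAPs, so the 3 labels did not overlap in their counting intervals. The next label of at least 20 cells, MuSCs (muscle stem cells), had 275 CPM from 21 cells, and 18 of its 22 Cxcl5 counts came from 1 cell. Of these cells 16 had under 3 counts of myogenic markers, and the 10 with at least 3 counts of FAP markers held 21 of the 22. Every other label of at least 20 cells had at most 37.5 CPM, below the ambient 495 CPM. The monocyte and macrophage labels had between 10.4 and 17.3 CPM as counted, and between 0.175 and 1.89 CPM after the authors' SoupX correction for ambient RNA, while pro-remodeling FAPs had 7933 CPM after it.

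Single FAPs varied widely in Cxcl5. In pro-remodeling FAPs at day 2 a cell held between 0 and 1196 Cxcl5 counts, with a median of 124 and quartiles of 45.2 and 281, and the 14 cells highest in Cxcl5 held 38.2% of the label's Cxcl5 counts. The median cell held 29 counts in stem FAPs and 2 in adipogenic FAPs. Cells were then thinned to 2000 counts each, which puts cells of unequal depth on one scale and leaves out shallower cells. At that depth 77.9% of 213 day 2 FAPs (71.8 to 83.3%) held a Cxcl5 count, against 2.64% of 1290 monocytes and macrophages, 6.33% of 537 neutrophils and 4.52% of 332 endothelial cells.

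At day 7 Cxcl5 was close to absent from the library. All 3196 labeled cells together held 51 Cxcl5 counts, 48 of them in FAPs (5.89 CPM), and no label lay above ambient, the highest being pro-remodeling FAPs with 7.47 CPM (5.43 to 10.0) beside an ambient 4.03 CPM (2.46 to 6.22). Between the libraries the FAP level differed by -10.03 on the log2 scale (-10.47 to -9.63). By label it was 1033-fold lower at day 7 in pro-remodeling FAPs and 652-fold lower in adipogenic FAPs, from 44 and 4 counts. In stem FAPs, with 0 counts at day 7, the counting interval of the log2 ratio reached up to -9.05. FAPs held fewer counts per cell at day 7, with medians of 24329 and 8429, and the mean number of Cxcl5 counts per FAP was 147 and 0.0596. Thinned to 2000 counts, 0.382% of 785 day 7 FAPs held a Cxcl5 count (0.0789 to 1.11%).

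**Figure D3:**
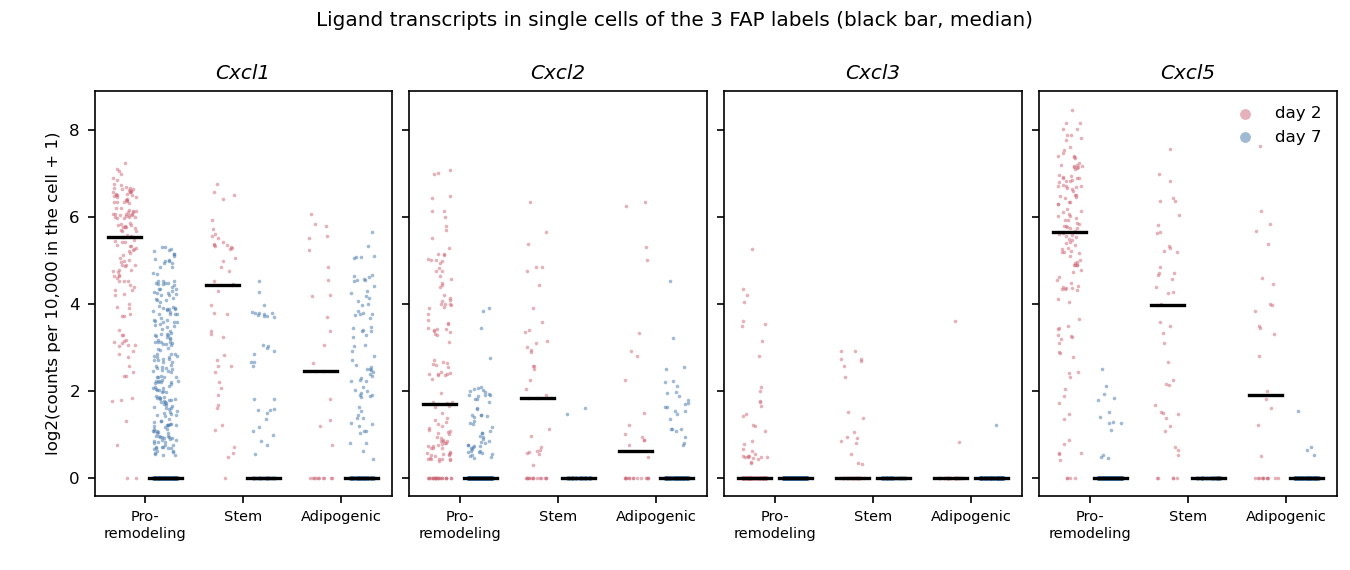
Each point is 1 FAP, with the level of 1 ligand gene per panel as log2(counts per 10000 counts of the cell + 1) for the 3 FAP labels at day 2 (red) and day 7 (blue), and black bars are medians. At day 2 the median pro-remodeling FAP held 106 Cxcl1 and 124 Cxcl5 counts before scaling, and at day 7 the median was 0 for all 4 genes in all 3 labels.

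Cxcl1, the mouse counterpart of the human GRO chemokines, was the ligand that FAPs still held at day 7. Its day 2 level was 5351 CPM (5275 to 5428) in pro-remodeling, 3193 CPM (3095 to 3293) in stem and 2345 CPM (2188 to 2509) in adipogenic FAPs. At day 7 the same labels had 429.7 CPM (413 to 447), 287 CPM (246 to 333) and 528 CPM (494 to 565). In these sums adipogenic FAPs were lowest of the 3 at day 2 and highest at day 7. Their counts lay in few cells, with 60.2% in 3 of 30 cells at day 2 and 83.6% in 24 of 232 at day 7. The intervals do not cover such spread between cells, so the change of order is a description. Over all FAPs the log2 ratio was -3.39 (-3.44 to -3.34), from 4609 to 439 CPM. Per FAP the mean number of Cxcl1 counts, which depth also sets, was 110.0 at day 2 and 4.44 at day 7. FAPs held 83.7% of the labeled cells' Cxcl1 counts at day 7, when they were 25.2% of the cells.

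Cxcl1 was found in most FAPs at day 2 and in a minority at day 7. Thinned to 2000 counts, 81.7% of FAPs at day 2 (75.8 to 86.6%) and 26.9% at day 7 (23.8 to 30.1%) held a Cxcl1 count, against 9.22% and 2.92% of monocytes and macrophages. The FAP labels were the only ones of at least 20 cells to lie above ambient for Cxcl1, with ambient levels of 606 CPM at day 2 and 187 CPM at day 7. Among smaller labels, the 16 tenocytes of day 2, tendon cells that also expressed FAP markers, had 1197 CPM, but 119 of their 189 counts came from 1 cell and 11 of the cells held none. T cells had 488 CPM at day 2, of which 101 of 133 counts came from 1 cell. Endothelial labels had between 39.5 and 156 CPM at day 2 and between 34.4 and 94.8 CPM at day 7, below ambient in both libraries.

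Cxcl2, also called MIP-2 and an early product of myeloid cells, was the ligand of neutrophils. The 708 day 2 neutrophils had 17374 CPM (17189 to 17560.1), and 98.3% of them held at least 1 Cxcl2 count at a median depth of 2351 counts. The median neutrophil held 35 Cxcl2 counts, with quartiles of 18 and 64 and a highest cell of 323. Monocytes and macrophages as a class had 2393 CPM (2369 to 2416), outside that interval, at a median depth of 11696 counts. The mean number of Cxcl2 counts per cell, not scaled for depth, was closer, 47.8 in neutrophils and 30.5 in monocytes and macrophages. Thinned to one depth, the gene was found in 98.0% of neutrophils (96.4 to 99.0%), 68.1% of monocytes and macrophages (65.5 to 70.7%) and 45.1% of FAPs (38.3 to 52.0%), against 16.6% of endothelial cells (12.7 to 21.0%).

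The monocyte and macrophage labels differed from each other in Cxcl2. Inflammatory monocytes had 2893 CPM at day 2, Cx3cr1-low M2 macrophages 2731, patrolling monocytes 2490.3, M1 macrophages 2178, Cx3cr1-high M2 macrophages 1699 and Cxcl10+ monocytes 1008 CPM, and no neighbors in this order had overlapping counting intervals. At day 7 the order began with inflammatory monocytes at 1042 CPM and ended again with Cxcl10+ monocytes at 339 CPM. Cx3cr1-low M2 macrophages (808 CPM) and patrolling monocytes (789.8 CPM) overlapped there. The class as a whole went from 2393 to 686 CPM, a log2 ratio of -1.80 (-1.85 to -1.76), and each of the 6 labels was between 2.78-fold and 3.38-fold lower at day 7. Of the day 7 Cxcl2 counts, 87.9% lay in this class.

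How Cxcl2 stood against ambient RNA depended on the scale. Mitochondrial genes made up 59.4% of the ambient counts but 5.17% of the kept cells' counts at day 2, and 40.0% and 4.74% at day 7. With all counts in the total, ambient Cxcl2 at day 2 was 1468 CPM and 8 of 18 labels lay above it, 5 of them monocyte or macrophage labels. Another was adipogenic FAPs, where 3 of 30 cells had at least 3 counts of neutrophil markers and held 355 of the 595 Cxcl2 counts, and the other 27 cells had 855 CPM. With mitochondrial genes left out on both sides, a choice made after seeing the data, it was 3619 CPM and 2 labels did, neutrophils (18694 CPM) and T cells (4014 CPM). For Cxcl3 the number of labels above ambient went from 7 to 2, patrolling monocytes and neutrophils. For Cxcl1 and Cxcl5 at day 2 it was the 3 FAP labels either way, and for Cxcr2 neutrophils either way. At day 7 the number went from 6 to 5 for Cxcl2, all monocyte or macrophage labels, and from 3 to 2 for Cxcl1, where stem FAPs no longer lay above.

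The Cxcl2 counts of FAPs and T cells were unevenly spread over cells. In day 2 FAPs it was 1385 CPM, below the ambient 1468 CPM, yet a pro-remodeling FAP held between 0 and 386 Cxcl2 counts with a median of 6, and 115 of the 138 cells held at least 1 while 14 held 58.1% of the counts. SoupX correction removed 3.07% of this label's Cxcl2 counts. In FAPs the Cxcl2 level at day 7 was 31.5 CPM, below the ambient 189 CPM. The log2 ratio between the libraries was -5.46 (-5.64 to -5.28). Of the 50 T cells at day 2, 17 held at least 3 counts of basophil and mast cell markers. Those 17 had 11362 CPM of Cxcl2 and held 835 of the label's 1024 counts, and the other 33 had 949.9 CPM. Of the 69 Cxcl2 counts in day 2 B cells, 56 came from 1 cell that held neutrophil markers.

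Cxcl3, the least abundant ligand gene here, was found at day 2 in myeloid labels and FAPs alike. Its level was 228 CPM (211 to 247) in patrolling monocytes, 225 CPM (204 to 247) in neutrophils, 151 CPM (138 to 164) in pro-remodeling FAPs and 137 CPM (128 to 146) in M1 macrophages. The first pair did not differ beyond counting error, nor did the second. The gene was found in few cells, in 40.9% of patrolling monocytes, 16.2% of neutrophils and 25.4% of pro-remodeling FAPs at their own depths (medians of 14608, 2351 and 26218 counts). With each cell thinned to 2000 counts the shares were 16.7%, 15.3% and 7.25%, so that neutrophils then lay above pro-remodeling FAPs. In pro-remodeling FAPs 14 of 138 cells held 93.0% of the Cxcl3 counts. Adipogenic FAPs had 11.2 CPM, from 4 counts in 2 cells.

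At day 7 the labeled cells held 19 Cxcl3 counts in all, 10 of them in monocytes and macrophages and 2 in FAPs. In monocytes and macrophages the level went from 136 to 1.33 CPM, a log2 ratio of -6.67 (-7.73 to -5.79), where Cxcl2 in the same cells differed by -1.80. The interval of the day 7 Cxcl3 level (0.638 to 2.45 CPM) held the ambient 1.41 CPM, and ambient Cxcl3 itself differed by -5.62 (-6.95 to -4.55) between the libraries, while Cxcl2 in these cells was 3.63 times its ambient level at day 7. In FAPs the Cxcl3 log2 ratio was -9.02 with a wide interval (-12.07 to -7.17), as the day 7 sum was 2 counts.

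The ligand transcripts of FAPs often shared a cell. Thinned to 2000 counts, 39.0% of 213 day 2 FAPs held 3 or 4 of the ligand genes and 67.1% held both Cxcl1 and Cxcl5. By label these shares were 45.7% and 81.9% in 138 pro-remodeling FAPs, 31.9% and 48.9% in 47 stem FAPs, and 17.9% and 25% in 28 adipogenic FAPs. Only 2.02% of 1290 monocytes and macrophages and 4.84% of 537 neutrophils held 3 or more, and none of 785 day 7 FAPs did, which allows up to 0.469% by the exact interval. A large overlap in day 2 FAPs follows from the shares of single genes at that depth, 81.7% for Cxcl1 and 77.9% for Cxcl5. In day 2 monocytes and macrophages those were 9.22% and 2.64%. Whether the genes shared a cell more often than these shares alone give was not tested. Across the 215 day 2 FAPs the Spearman rho of the scaled levels was 0.56 for Cxcl1 and Cxcl5, 0.59 for Cxcl1 and Cxcl2 and 0.33 for Cxcl2 and Cxcl5. It was 0.24 for Cxcl2 and Cxcl3 and 0.20 for Cxcl1 and Cxcl3. Within pro-remodeling and stem FAPs it was 0.48 and 0.43 for Cxcl1 and Cxcl5, and 0.56 and 0.59 for Cxcl1 and Cxcl2. For Cxcl2 and Cxcl5 it was 0.36 and -0.02. These are correlations across cells of 1 library, which share depth and label, and are given as a description.

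**Figure D4:**
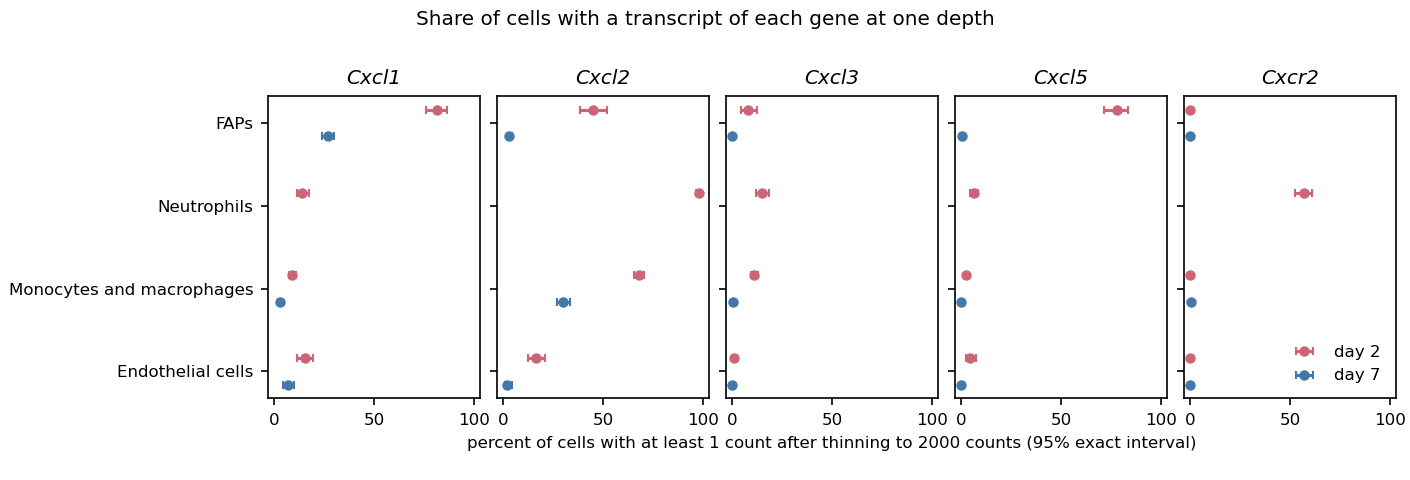
Percent of cells (x axis) with at least 1 count of each gene (panels) after every cell was thinned to 2000 counts, for 4 classes (y axis) at day 2 (red) and day 7 (blue), with exact 95% intervals that cover counting error only; day 7 neutrophils are not drawn. Cxcl1 (81.7%) and Cxcl5 (77.9%) were found in most day 2 FAPs, Cxcl2 in 98.0% and Cxcr2 in 57.0% of day 2 neutrophils, and at day 7 Cxcl1 in FAPs (26.9%) and Cxcl2 in monocytes and macrophages (30%) remained above 20%.

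Cxcr2, the receptor of these ligands, was found in neutrophils. Day 2 neutrophils had 694 CPM (657 to 732), and 64.7% of the 708 cells (61.0 to 68.2%) held at least 1 count, with a median of 1 count and a highest cell of 13. Thinned to 2000 counts the share was 57.0% of 537 cells (52.7 to 61.2%), against 0 of 213 FAPs, which allows up to 1.72% of cells with a count by the exact interval, 0.233% of 1290 monocytes and macrophages and 0.301% of 332 endothelial cells. No other label of at least 20 cells lay above the ambient 15.4 CPM. B cells came nearest at 50.4 CPM, where 4 of 5 counts came from the 1 cell with neutrophil markers. Capillary endothelial cells held 0 Cxcr2 counts in 159 cells.

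Ligand and receptor were found together in neutrophils. Of the 708 day 2 neutrophils 450 (63.6%, 59.9 to 67.1%) held both a Cxcl2 and a Cxcr2 count, and thinned to 2000 counts 302 of 537 (56.2%) did. Since 98.3% of these cells held Cxcl2, this share is close to that of Cxcr2 alone. At day 7 the labeled cells held 25 Cxcr2 counts. Of these, 11 came from a single cell of the 10 labeled neutrophils and 10 from 9 of 757 monocytes and macrophages (1.33 CPM). The mean level over all labeled cells went from 40.9 to 0.905 CPM. Outside neutrophils the receptor was near 0 in both libraries. Monocytes and macrophages held 17 and 10 counts, a log2 ratio of 0.37 (-0.92 to 1.58), and FAPs held 3 counts in each library.

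The ligand genes were compared between libraries in the classes with enough cells, with the share of all genes as background. A gene counted as measured in a class with at least 50 counts over both libraries, and as lower or higher past 2-fold, without a test. In FAPs 4 of 4 measured members were lower at day 7, where 14.4% of 10391 genes were lower and 22.7% higher. In monocytes and macrophages 4 of 4 were lower, where 13.1% of 9966 genes were lower and 15.4% higher. In endothelial cells 3 of 3 were lower, where 9.46% of 7657 genes were lower and 12.1% higher. Cxcr2 was not measured in any of the 3 classes, nor was Cxcl3 in endothelial cells. In smooth muscle 3 of 3 were lower, where 7.34% of all genes were lower and 11.2% higher. In dendritic cells it was 1 of 1, beside 8.42% and 8.84%, and in T and NK cells 2 of 2, beside 6.00% and 11.1%. These members were listed for being high at day 2, so nothing is read from their counts. The median log2 ratio was -7.24 for the measured members in FAPs and 0.15 for all genes, and -4.37 and -0.09 in monocytes and macrophages. Endothelial Cxcl1 (122 to 57.2 CPM), Cxcl2 (135 to 15.5 CPM) and Cxcl5 (21.0 to 0.596 CPM) lay under the ambient level in both libraries, and the ambient level was lower at day 7 too, with log2 ratios of -1.70 for Cxcl1, -2.96 for Cxcl2 and -6.94 for Cxcl5. Cxcl1 (79.3 to 18.9 CPM) and Cxcl5 (14.1 to 0.133 CPM) in monocytes and macrophages also lay under the ambient level in both libraries, 606 and 187 CPM for Cxcl1 and 495 and 4.03 CPM for Cxcl5. So did Cxcl2 in FAPs (1385 to 31.5 CPM), beside ambient levels of 1468 and 189 CPM. What part ambient RNA had in these values, and in the day 7 Cxcl3 of monocytes and macrophages, was not tested.

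**Figure D5:**
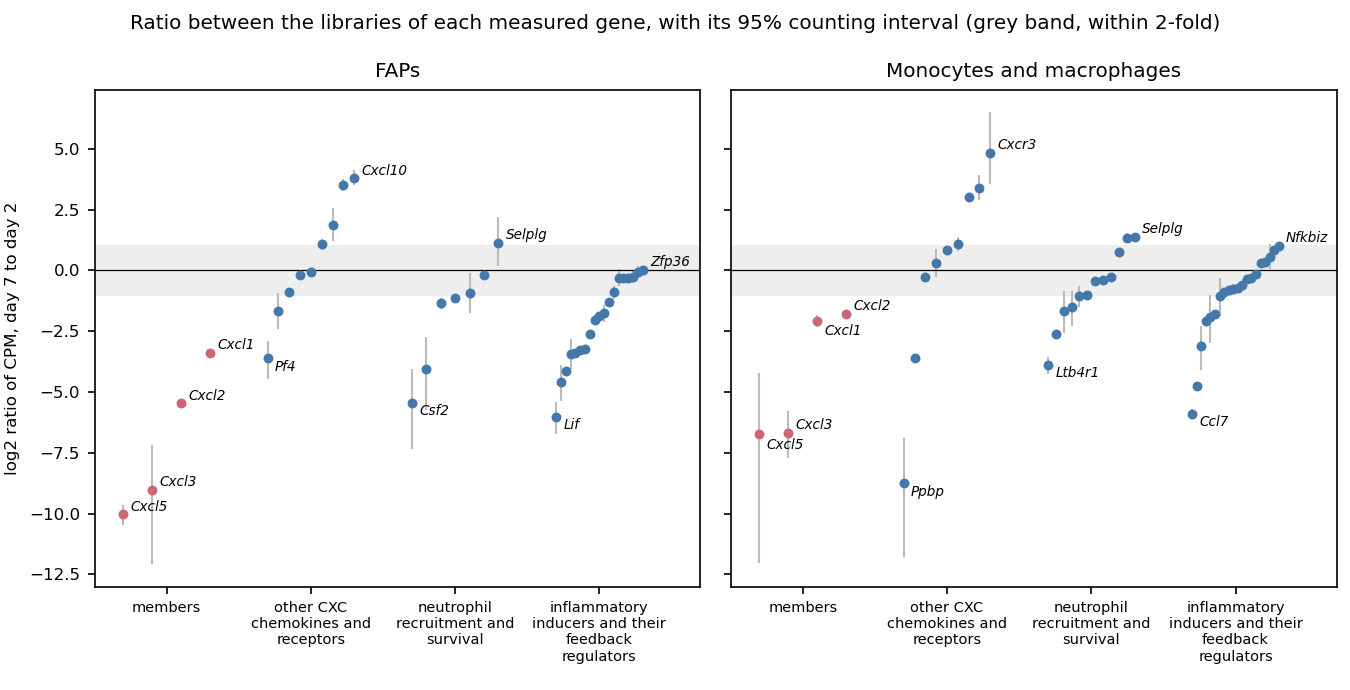
Log2 ratio of CPM, day 7 to day 2, of each measured gene (points) of the 4 gene lists (x axis) in FAPs (left) and in monocytes and macrophages (right), with 95% counting intervals as gray lines and the span within 2-fold as a gray band; members are red, and the lowest and highest gene of the other lists are named. In FAPs the members lay between -10.03 (Cxcl5) and -3.39 (Cxcl1), and in the list of other CXC genes Cxcl10 (3.79) and Cxcl9 (3.52) lay above 0.

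Other CXC chemokine and receptor genes were found on both sides. In FAPs 2 of 9 measured genes of that list were lower and 4 higher, beside 14.4% and 22.7% of all genes. They were again 2 and 4 of 9 in monocytes and macrophages, beside 13.1% and 15.4%, and in endothelial cells 1 and 2 of 9, beside 9.46% and 12.1%. Higher at day 7 in FAPs were Cxcl10 (17.9 to 249 CPM) and Cxcl9 (30.4 to 348 CPM), interferon-induced ligands of Cxcr3, a receptor of activated T cells, with log2 ratios of 3.79 and 3.52. Cxcl12, the ligand of Cxcr4 that retains blood cells in bone marrow, was at 634 and 599 CPM, a log2 ratio of -0.08 (-0.15 to -0.02). Cxcl14, another mesenchymal CXC gene, went from 5632 to 3002 CPM (-0.91). The pair between Cxcl5 and Cxcl3 in the chromosome 5 cluster was lower in monocytes and macrophages, Ppbp from 115 to 0.266 CPM (-8.76, -11.80 to -6.90) and Pf4 from 4258 to 353 CPM (-3.59). Pf4 in FAPs (25.7 and 2.09 CPM) lay far below its ambient level of 929.7 and 50.9 CPM. Cxcl16, the ligand of Cxcr6, was higher in monocytes and macrophages (78.4 to 631 CPM), and so were Cxcr3 (0.303 to 8.64 CPM), Cxcl9 (2.49 to 26.1 CPM) and Cxcl14 (12.7 to 26.9 CPM), of which Cxcl9 and Cxcl14 lay at or below ambient in both libraries. In FAPs Ackr1, a receptor that binds chemokines without signaling, Cxcl16 and Cxcr4 had log2 ratios of 1.86, 1.07 and -1.67.

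Of the genes of neutrophil recruitment and survival, 4 of 7 measured in FAPs were lower and 1 higher, beside the same 14.4% and 22.7% of all genes. Lower and higher in monocytes and macrophages were 5 and 2 of 12, beside 13.1% and 15.4%, and in endothelial cells 0 and 0 of 4, beside 9.46% and 12.1%. Csf2, the cytokine GM-CSF that prolongs neutrophil life, went from 21.6 to 0.491 CPM in FAPs (-5.46, -7.36 to -4.06), where its day 2 ambient level was 1.31 CPM. In monocytes and macrophages Ltb4r1, the receptor of leukotriene B4, went from 131 to 8.78 CPM (-3.90). C5ar1, the complement C5a receptor, went from 479 to 78.1 CPM (-2.62), and in FAPs it lay below ambient. Il17ra, a subunit of the interleukin-17 receptor, and Hmgb1, an alarmin, had log2 ratios of -1.36 and -1.14 in FAPs, and Selplg had one of 1.14 there from 12 and 42 counts.

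Of the list of inflammatory inducers and their feedback regulators, 12 of 19 genes measured in FAPs were lower past 2-fold and 0 higher. All genes stood at 14.4% and 22.7%, and the median log2 ratio of the list was -1.88 (0.15 over all genes). The list was not limited to genes that act on the ligand genes. In monocytes and macrophages 7 of 20 were lower and 1 higher, beside 13.1% and 15.4% (median -0.75 against -0.09), and in endothelial cells 5 and 1 of 17, beside 9.46% and 12.1% (median -0.26 against 0.01). Smooth muscle had 5 and 0 of 18, beside 7.34% and 11.2%, and dendritic cells 5 and 1 of 16, beside 8.42% and 8.84%. Cells labeled T and NK had 10 of 17 lower and 0 higher, beside 6.00% and 11.1% (median -1.15 against 0.03). Of the other CXC genes these T and NK cells had 2 lower and 4 higher of 8. Of the genes of neutrophil recruitment and survival they had 1 and 1 of 7. Their makeup by markers differed between the libraries. At day 2, 31 of these 71 cells held more marker counts of another class than of their own, and their own markers summed to 1041 CPM, beside 2049.7 CPM of neutrophil, 1694 CPM of endothelial and 1433 CPM of monocyte and macrophage markers. At day 7, 108 of 404 did, with 1937 CPM of their own and 16.5 CPM of neutrophil markers. Among T cells 17 of 50 at day 2 and 0 of 293 at day 7 had at least 3 counts of basophil and mast cell markers. The part of this makeup in the T and NK counts was not tested. In FAPs the cytokine Lif went from 178 to 2.70 CPM (-6.04), the AP-1 subunit Fosl1 from 52.8 to 2.21 CPM (-4.58) and the monocyte chemokine Ccl2 from 3748 to 216 CPM (-4.12). Ptgs2 (cyclooxygenase-2), Ccl7 and Il6 had log2 ratios between -3.38 and -3.22. In monocytes and macrophages Ccl7 (1969 to 33.1 CPM), Ccl2 (2873 to 107 CPM) and Cebpb (2111 to 608 CPM) were among the lower genes. Nfkbia, the inhibitor that NF-kB itself induces, went from 719.6 to 176 CPM in FAPs (-2.03) and from 641 to 352 CPM in monocytes and macrophages (-0.87). Nfkb1, which encodes the p105 and p50 subunits of NF-kB, went from 806 to 133 CPM in FAPs (-2.60), while Rela, its p65 partner, was at 42.7 and 40.7 CPM in FAPs (-0.07, -0.32 to 0.19). Il1b, which encodes interleukin-1 beta, was at 777 and 447 CPM in monocytes and macrophages (-0.80) and, in FAPs, at 36.8 and 3.44 CPM, below its ambient level of 619.6 and 138 CPM.

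The genes whose levels most resembled each member across 41 sums of a label and a day were found by Pearson's r of log2(CPM + 1) among 11257 genes. These sums share libraries and depths, and r is given as a description. Nearest to Cxcl1 were Rdh10 (0.88), Srm (0.79), Csf1 (0.78), Sec24d (0.78) and Steap1 (0.78). Nearest to Cxcl2 were Clec4d (0.88), Nlrp3 (0.87), Ccl6 (0.87), Il1b (0.85) and Clec4e (0.84), which are known from myeloid cells. Cxcl3 was nearest to Slc7a11 (0.81), Por (0.80), Cxcl2 (0.79), Ptp4a1 (0.79) and Agpat9 (0.79), and it was the only member with another member among its nearest 5. Cxcl5 was nearest to Polr2f (0.82), Wdr89 (0.79), Esd (0.79), Nme1 (0.78) and Rps2 (0.78), and its r with Cxcl1 was 0.75. Cxcr2 was nearest to Wfdc21 (0.86), Mrgpra2b (0.85), Retnlg (0.77), Prok2 (0.77) and Il1a (0.76), each of which was highest in day 2 neutrophils.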

How the data were processed

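The authors deposited counts of UMIs for every barcode and for barcodes called as cells. They also deposited SoupX-corrected values, that is estimated counts with decimals. The submitters' processing notes name Cell Ranger 3.1.0, Seurat 3.1.5 and build mm10, and the file headers give Cell Ranger 3.0.1. Cell types came from the deposited annotation, made on a larger integrated collection after doublet removal per the methods of the study. No doublet caller was run here. Its 25 cell types were gathered into 12 classes.

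Kept cells were annotated and passed the study's limits in SoupX values (minimum 750 genes and 1000 transcripts, maximum 30% mitochondrial). SoupX had removed 2.90% of counts at day 2 and 2.60% at day 7. Uncorrected counts were summed and scaled to CPM, so a class's levels depend on its whole total. Ambient sums held 3053639 and 4966167 counts. Intervals (95%) were exact Poisson for sums, Clopper-Pearson for shares and conditional binomial for ratios, and they cover counting error only. The ratio intervals alone were tried on simulated data. Those were Poisson counts, as the intervals assume, so the trial does not bear on counts clustered in few cells. In folds, 3 counts stood in for 0. With 1 library per day no test between days was made. All values were computed with Python 3.11.15, numpy 2.4.6, scipy 1.17.1 and pandas 2.3.3.

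The members and lists were chosen with earlier results of these data known. Named genes were the members, up to 6 per list by size of ratio in FAPs, then in monocytes and macrophages, with others added after seeing values, and the 5 nearest genes of each member (labels of at least 20 cells, genes of at least 200 counts). One list gene is not reported here and was left out of its list's counts.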

Additional observations from a re-analysis of the deposited data

Results flagged for a closer look

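The members were also counted in called barcodes that met the limits on cells but had no annotation, and that the report does not use. There were 680 such barcodes at day 2, and they held 852 CPM of Cxcl1 (829 to 877), 1604 CPM of Cxcl2 (1571 to 1637), 106 CPM of Cxcl3 (98.0 to 115), 1038 CPM of Cxcl5 (1012 to 1065) and 8.22 CPM of Cxcr2 (6.04 to 10.9). They are given because these barcodes enter no comparison. The ambient level at day 2 was 606 CPM for Cxcl1, 1468 CPM for Cxcl2 (1425 to 1512), 69.4 CPM for Cxcl3, 495 CPM for Cxcl5 and 15.4 CPM for Cxcr2 (11.3 to 20.5), so that Cxcr2 lay below it and Cxcl2 was close to it. Beside the mean over labeled cells, Cxcl1 (799 CPM there), Cxcl3 (99.2) and Cxcl5 (946) were at most slightly higher, while Cxcl2 (2442) and Cxcr2 (40.9) were lower. A wider set, all 1658 called barcodes at day 2 that were not kept or had no label, included these 680. Its Cxcl2 (2887 CPM, 2848 to 2927), Cxcr2 (87.1 CPM, 80.3 to 94.2) and Cxcl3 (112 CPM) lay above the labeled mean. Its Cxcl1 (726 CPM) and Cxcl5 (862 CPM) lay below the labeled mean. Of the 680 barcodes 130 held a Cxcl5 count. At day 7 there were 477 such barcodes, with 72.0 CPM of Cxcl1 (63.1 to 81.9) and 133 CPM of Cxcl2 (121 to 147), both below the ambient 187 and 189 CPM. What cells these barcodes were was not tested.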

How the results depend on the processing

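The 4 log2 ratios kept their direction under every alternative run. Of 24 alternative values of the 4 log2 ratios, 21 stayed within the counting interval of the value reported. Taking the mean of each cell's CPM gave -10.57 for Cxcl5 and -3.48 for Cxcl1 in FAPs, and median-of-ratios scaling gave -3.47 for Cxcl1. The share of day 2 neutrophils with Cxcr2 (64.7%) was 48.4% at a minimum of 2 counts, 57.0% after thinning to 2000 counts and 50% under stricter limits on cells, which left 28 of the 708 cells. Thinning also left out the 171 neutrophils under 2000 counts. Before thinning, 69.0% of those held a Cxcr2 count, beside 63.3% of the 537 used. The share of Cxcl5 counts held by day 2 FAPs (98.4%) was 99.6% in SoupX values and 98.8% both under stricter limits and without cells of mixed markers.

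Counts of genes past 2-fold moved with the filter, which also set how many genes were tested, and are given with their share of those. With at least 200 counts instead of 50, 1291 genes (18.3%) in FAPs were higher (2363, 22.7%, as reported), and in endothelial cells 361 (10.4%) were lower (724, 9.46%) and 367 (10.6%) higher (926, 12.1%). In monocytes and macrophages 797 (10.7%) were then higher (1535, 15.4%), fewer than the 1066 (14.3%) lower (1307, 13.1%). With at least 1 count, 3784 genes (21.6%) in FAPs were lower (1497, 14.4%) and 3991 (22.8%) higher, 2173 endothelial genes (14.5%) lower and 3375 (22.5%) higher, and 5162 (31.0%) in monocytes and macrophages higher. In T and NK cells 367 (6.00%) were lower and 677 (11.1%) higher as reported, 91 (4.74%) and 152 (7.91%) with at least 200 counts, and 4643 (30.9%) and 1453 (9.68%) with at least 1 count, which turned the balance. No paired analysis was possible because each group held 1 library. With 1 library per day, all of these values share the limit that variation between animals was not measured, and a sum under 10 counts, such as day 7 Cxcl3 in FAPs, bounds a ratio only loosely.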
